A study of Mus musculus with 8 samples.

Results

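The genes described are 9 mouse genes of iron uptake, storage, export and sensing, out of 34745 genes listed in the deposited tables. They were chosen by symbol and not by their values, though earlier results of these data were known. The genes are Tfrc, Steap3 and Slc11a2 for uptake, Fth1, Ftl1 and Ncoa4 for storage, Slc40a1 for export, and Aco1 and Ireb2 for sensing. All 9 were matched by Ensembl identifier and all 9 passed the filter on low counts. They were measured by bulk RNA-seq in tumours grown from B16F10, an established mouse melanoma line, after injection under the skin of C57BL/6J mice on a high cholesterol diet (HCD, 4 samples) or a normal diet (ND, 4 samples). Cell line, host strain and site were common to both groups, and diet was the only stated difference. Neither the age of the mice, the composition of the diets nor the time of harvest is given in the labels. Whether each tumour had its own mouse is not in the labels either, so the p-values speak only of sample-to-sample spread, part or all of which could be technical. The comparison asks whether transcripts of iron handling in the tumour differ with the diet of the host.

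Cells take up iron mainly as transferrin, which binds the transferrin receptor and releases its iron in the acidic endosome, where the metal is reduced and then moved into the cytosol. Surplus iron is stored inside ferritin shells, and ferroportin is the exporter of iron from vertebrate cells. Iron-regulatory proteins sense cytosolic iron. In iron-poor cells they bind iron-responsive elements, short RNA stem-loops, which blocks translation of messages that carry the element in the 5′ UTR and protects transferrin receptor messages that carry it in the 3′ UTR from decay. Levels of Tfrc RNA therefore move with this control, while ferritin RNA can stay level as ferritin protein changes.

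Stem-loops found in 4 members are shown because the products of the 2 sensing genes bind elements of this kind. The pattern searched was an unpaired C, a stem of 5 base pairs in which G-T pairs were allowed, and the 6-base loop CAGTGN with N other than G. The search covered the sequences of GENCODE M21 protein-coding transcripts (GRCm38, also called mm10), in the sense of the RNA. Capitals mark the unpaired C and the loop, and each window of 30 bases is written 5′ to 3′ in the sense of the RNA, with T for U.
Fth1, 5′ UTR, chr19:9982732-9982761, plus strand: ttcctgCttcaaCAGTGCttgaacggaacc
Ftl1, 5′ UTR, chr7:45459778-45459807, minus strand: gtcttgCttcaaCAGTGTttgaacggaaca
Slc40a1, 5′ UTR, chr1:45925464-45925493, minus strand: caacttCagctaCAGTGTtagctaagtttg
Tfrc, 3′ UTR, window 1 of 4, chr16:32631219-32631248, plus strand: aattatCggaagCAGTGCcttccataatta
Tfrc, 3′ UTR, window 2 of 4, chr16:32631598-32631627, plus strand: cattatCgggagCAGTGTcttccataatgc
Tfrc, 3′ UTR, window 3 of 4, chr16:32631663-32631692, plus strand: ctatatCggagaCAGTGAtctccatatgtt
Tfrc, 3′ UTR, window 4 of 4, chr16:32631710-32631739, plus strand: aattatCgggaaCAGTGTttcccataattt

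The 2 ferritin windows share every letter from the unpaired C through the first 5 loop bases. Over 21901 protein-coding genes, 222 (1.01%) held the pattern anywhere in a transcript, 23 (0.105%) in a 5′ UTR and 100 (0.457%) in a 3′ UTR. A match in letters is a description and not a measured binding site. The pattern was not found in transcripts of Slc11a2, Steap3, Aco1, Ireb2 or Ncoa4. This says only that these letters do not occur there, and not that an element of another form is absent. Of the scanned transcripts, 4 of 5 carried the window for Fth1, 1 of 2 for Ftl1, 1 of 4 for Slc40a1 and 1 of 3 for Tfrc. The counts are per gene, so messages with and without the stem-loop are added together in every value given here.

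Total counts per library ran from 14599222 to 17722093. Libraries ND 2, ND 3 and ND 4 stood apart from the other 5: they had counts on 439 to 467 of 1714 olfactory and vomeronasal receptor genes, against 8 to 13 in the HCD libraries and 11 in ND 1. What sets them apart was not tested, and with a term for them the diet contrast rests on ND 1 alone against the 4 HCD libraries. Melanocyte markers were present in every library, with 7 of 7 tested, none at 0 and a summed level of 25876 to 30097 CPM in HCD tumours and 28208 to 29608 CPM in ND tumours. Of the 7, 1 was called, against 0.182% of all genes tested. This was Mitf, at 453 ± 51.3 CPM in HCD and 251 ± 34.3 CPM in ND (log2 fold change 0.85, edgeR adjusted p = 0.0459). The call depended on the libraries used, since 0 genes were called without HCD 4, without ND 4 or with the replicate number as a block. CPM are counts scaled to the library total with TMM factors, and a called gene has a Benjamini-Hochberg adjusted p under 0.05 over all 13186 genes tested. By edgeR's quasi-likelihood test 24 genes were called, 9 higher and 15 lower in HCD.

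Of the 9 iron genes, 0 were called, against 0.182% of all genes tested (0.0683% higher and 0.114% lower), and 0 had an unadjusted p under 0.05, against 14.7% of all genes (7.21% higher and 7.49% lower). DESeq2 also called 0 of 9, against 3.17% of all genes, and limma-voom 0 of 9, against 0.144%. The log2 fold changes, HCD over ND, lay between -0.26 for Slc40a1 and 0.20 for Tfrc. They were positive for 5 genes and negative for 4, with a median of 0.076, against 51.1% positive and a median of 0.00494 over all genes tested. Aco1 was the 1 gene of 9 (11.1%) whose HCD and ND samples did not overlap, against 9.67% of all genes. In bulk tumour RNA, fewer cells of a type and less RNA per cell cannot be told apart, and this holds for each level below.

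**Figure D1:**
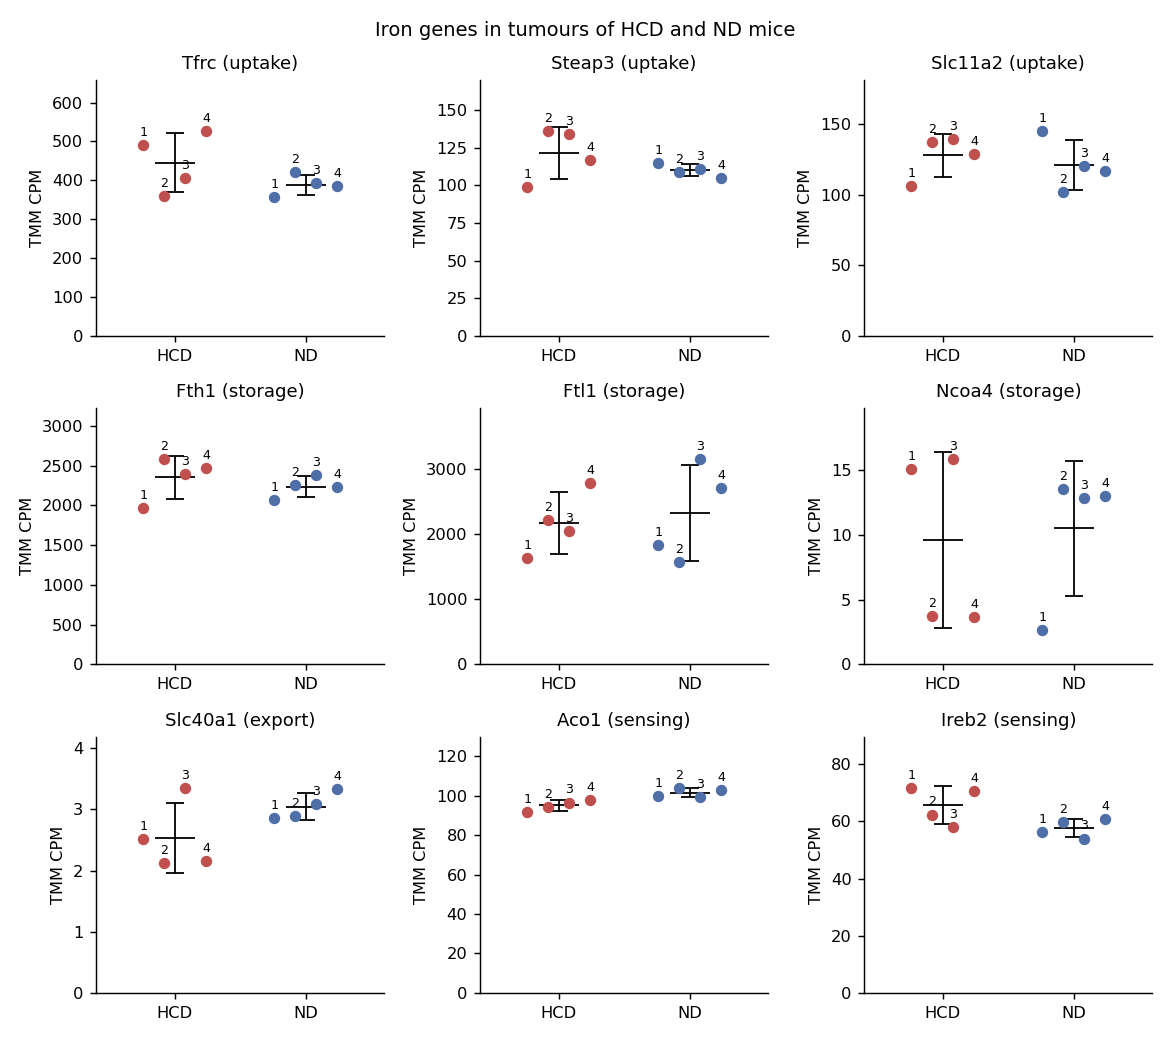
Levels of the 9 iron genes in each tumour library (y axis, TMM-scaled CPM on a linear axis from 0), HCD left of ND, with replicate numbers beside the points and bars for the group mean ± SD (n = 4 each). Aco1 is the gene whose groups do not overlap, and Ncoa4 lies near 3 in HCD 2, HCD 4 and ND 1 and near 13 to 16 in the other libraries.

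The genes spanned a wide range of levels per length, with the 2 ferritin chains highest and Tfrc after them, but part of the order depended on the gene length used. The deposited FPKM scales a count by a gene length and the library total, and the length behind it ran from 0.25 times the annotated exon bases for Fth1 (866 against 3469) to 2.11 times for Ftl1 (2826 against 1340). For Tfrc it was 1.56 times and for Steap3 1.79 times, and for Ireb2 0.613 times. Each level is therefore given as deposited FPKM and also per annotated exon base, with the same scaling to the library total. For Ftl1 the length of 2826 behind the deposited FPKM exceeds the gene's whole annotated span, chr7:45457944-45459884. The annotated transcripts used to seek copies measured 968 bases for Ftl1, 1494 for Fth1 and 5770 for Ireb2, and neither scale uses these. Which transcripts the tumours expressed was not tested.

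The order of the ferritin chains turned with the length. In deposited FPKM, Fth1 averaged 2644 (2348 to 3033) over the 8 libraries and Ftl1 794 (548 to 1089), while per annotated base Fth1 averaged 660 (586 to 757) and Ftl1 1674 (1155 to 2297). Tfrc stood below both on either length, at 43.3 FPKM (36.7 to 54.3) or 67.5 per annotated base (57.2 to 84.7). Fth1 was 44.7 to 79.8 times as high as Tfrc within a library in deposited FPKM, and 7.16 to 12.8 times per annotated base.

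The sensors and the remaining uptake genes lay lower. In deposited FPKM, Aco1 averaged 19.8 (19.1 to 20.6), Slc11a2 17.2 (13.8 to 19.9), Steap3 11.3 (9.99 to 13.5) and Ireb2 10.6 (9.07 to 12.8). The ranges of Aco1 and Slc11a2 overlapped there, as did those of Steap3 and Ireb2. Per annotated base, Aco1 averaged 21.8 (21.1 to 22.8), Steap3 20.2 (17.9 to 24.2) and Slc11a2 19.6 (15.7 to 22.6), with overlapping ranges, and Ireb2 was below all 3 at 6.51 (5.56 to 7.82). Ncoa4 and Slc40a1 had the lowest means on either length, at 1.45 FPKM (0.384 to 2.31) and 0.259 FPKM (0.199 to 0.314). Per annotated base their ranges overlapped, with Ncoa4 higher in 7 of 8 libraries. The import receptor Tfrc stood 129 to 273 times above the exporter Slc40a1 in deposited FPKM and 168 to 355 times per annotated base.

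Tfrc (ENSMUSG00000022797, chr16:32608920-32632794, plus strand) encodes transferrin receptor 1, the cell surface receptor that brings in transferrin-bound iron. Its levels were 490, 359, 407 and 527 CPM in HCD 1 to HCD 4, against 357, 421, 392 and 385 CPM in ND 1 to ND 4. HCD 1 and HCD 4 lay above every ND tumour, while HCD 2 and HCD 3 lay inside the ND range. The means were 446 ± 76.2 CPM in HCD and 389 ± 26.4 CPM in ND (SD, n = 4 each). The log2 fold change of 0.20 (SE 0.114, 95% interval -0.06 to 0.45) did not pass the test (edgeR adjusted p = 0.467). In fold the interval runs from 0.962 to 1.37.

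Steap3 (ENSMUSG00000026389, chr1:120190757-120272705, minus strand) encodes an endosomal ferrireductase that reduces iron released from transferrin. It had 98.9, 136, 134 and 117 CPM in HCD 1 to HCD 4, against 115, 109, 111 and 105 CPM in ND 1 to ND 4. The HCD tumours surrounded the ND tumours, with 3 above all of them and HCD 1 below all of them. Means were 122 ± 17.3 CPM in HCD and 110 ± 4.46 CPM in ND, a log2 fold change of 0.15 (SE 0.0993, 95% interval -0.07 to 0.37; edgeR adjusted p = 0.549).

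Slc11a2 (ENSMUSG00000023030, chr15:100387898-100425072, minus strand) encodes DMT1, the divalent metal transporter that carries reduced iron from the endosome into the cytosol. Its levels were 106, 137, 139 and 129 CPM in HCD 1 to HCD 4, against 145, 102, 120 and 117 CPM in ND 1 to ND 4. The groups overlapped, and the highest library of all was ND 1. The means of 128 ± 15.3 CPM in HCD and 121 ± 18 CPM in ND gave a log2 fold change of 0.08 (SE 0.119, 95% interval -0.18 to 0.34; edgeR adjusted p = 0.813). With a term for ND 2, ND 3 and ND 4 the fold change turned to -0.18 (adjusted p = 0.697). Its exons share 402 of 6354 bases with the opposite-strand gene Gm5475, which had 19 counts in all.

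Steap3 and Slc11a2 had their highest HCD levels in HCD 2 and HCD 3, their lowest HCD level in HCD 1 and their highest ND level in ND 1. Tfrc was arranged otherwise, with HCD 1 above every ND tumour and HCD 2 the lowest of the HCD libraries.

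Fth1 (ENSMUSG00000024661, chr19:9980598-9985098, plus strand) encodes the ferritin heavy chain, whose ferroxidase activity loads iron into the shell. Its levels were 1967, 2577, 2393 and 2474 CPM in HCD 1 to HCD 4, against 2061, 2254, 2384 and 2229 CPM in ND 1 to ND 4. HCD 2, HCD 3 and HCD 4 lay above every ND tumour and HCD 1 below every one of them, the same arrangement as for Steap3. Means were 2353 ± 268 CPM in HCD and 2232 ± 132 CPM in ND. The log2 fold change of 0.08 (SE 0.0874, 95% interval -0.12 to 0.27) did not pass the test (edgeR adjusted p = 0.752).

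Ftl1 (ENSMUSG00000050708, chr7:45457944-45459884, minus strand) encodes the ferritin light chain, which favours formation of the iron core. It had 1638, 2223, 2057 and 2796 CPM in HCD 1 to HCD 4, against 1838, 1578, 3153 and 2718 CPM in ND 1 to ND 4. The spread within each group was wider than the gap between the groups: the lowest and the highest of the 8 libraries, ND 2 and ND 3, were both ND. Means of 2178 ± 480 CPM in HCD and 2322 ± 738 CPM in ND gave a log2 fold change of -0.09 (SE 0.222, 95% interval -0.58 to 0.40; edgeR adjusted p = 0.893). The sign turned without HCD 1 (0.02), without ND 3 (0.09) and with a term for ND 2, ND 3 and ND 4 (0.25). Together Fth1 and Ftl1 made up 0.459% ± 0.0651 of all counts in HCD tumours and 0.448% ± 0.0799 in ND tumours (SD, n = 4 each).

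Ftl1 shares sequence with several copies in the genome, so its counts are uncertain wherever reads could have been split between them. Its exons also share 464 of 1340 bases with Gm22133 (same strand, 109 bases) and Gm10252 (opposite strand, 355 bases), neither of which was listed. The closest, Ftl1-ps1 on chromosome 13 (ENSMUSG00000062382), matches 910 bases at 99.56% identity, or 94% of the 968-base Ftl1 transcript. Ftl1-ps1 had 463, 631, 598 and 528 CPM in HCD 1 to HCD 4, against 536, 491, 601 and 520 CPM in ND 1 to ND 4. Of 7 annotated genes matching at least 200 bases at 95% identity, 2 were listed with counts, and these held 24.4% as many counts as Ftl1. Among the 7 is Gm10252, which overlaps Ftl1 on chromosome 7 and is not a separate copy of it. The copy varied less over the libraries than the gene, with a highest level 1.36 times the lowest against 2 times for Ftl1, and their sum varied 1.81 times. Means for Ftl1-ps1 were 555 ± 74.9 CPM in HCD and 537 ± 46.5 CPM in ND (log2 fold change 0.05, edgeR adjusted p = 0.874).

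Ncoa4 (ENSMUSG00000056234, chr14:32159865-32179855, plus strand) encodes the receptor that carries ferritin to the lysosome so that its iron is released. Its levels were 15.1, 3.7, 15.8 and 3.69 CPM in HCD 1 to HCD 4, against 2.69, 13.5, 12.8 and 13 CPM in ND 1 to ND 4. The libraries fell into a low set, HCD 2, HCD 4 and ND 1, and a high set of the other 5, and this split did not follow diet. The highest library stood 5.88 times above the lowest, the widest range of the 9 genes. Means were 9.57 ± 6.8 CPM in HCD and 10.5 ± 5.22 CPM in ND, a log2 fold change of -0.13 with a wide 95% interval of -1.41 to 1.15 (SE 0.576, edgeR adjusted p = 0.951). The value turned to 0.14 without HCD 2 or without HCD 4, to 0.02 without ND 2, and to 1.83 (adjusted p = 0.48) with a term for ND 2, ND 3 and ND 4.

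A near-identical copy of Ncoa4 held more counts than the gene. The processed pseudogene Gm6768 on chromosome 12 (ENSMUSG00000021908) matches 1878 bases of Ncoa4 at 99.89% identity, 46.2% of its 4065-base transcript. It held 405, 468, 456 and 460 counts in HCD 1 to HCD 4 and 400, 384, 392 and 359 counts in ND 1 to ND 4, against 252, 61, 274 and 65 counts for Ncoa4 in HCD and 47, 224, 207 and 188 in ND. The pseudogene stayed between 22.9 and 28.4 CPM across the libraries in which Ncoa4 split. Over the 8 libraries it had 3324 counts against 1318 for Ncoa4, or 252%. The sum of the pair was 39.4, 32, 42.1 and 29.8 CPM in HCD 1 to HCD 4, against 25.6, 36.6, 37 and 38 CPM in ND 1 to ND 4. This sum was again lowest in HCD 2, HCD 4 and ND 1, with a range of 1.65 times. The treatment of reads that match both is not given in these sources, so the level of Ncoa4 is uncertain and the origin of the split was not tested.

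**Figure D2:**
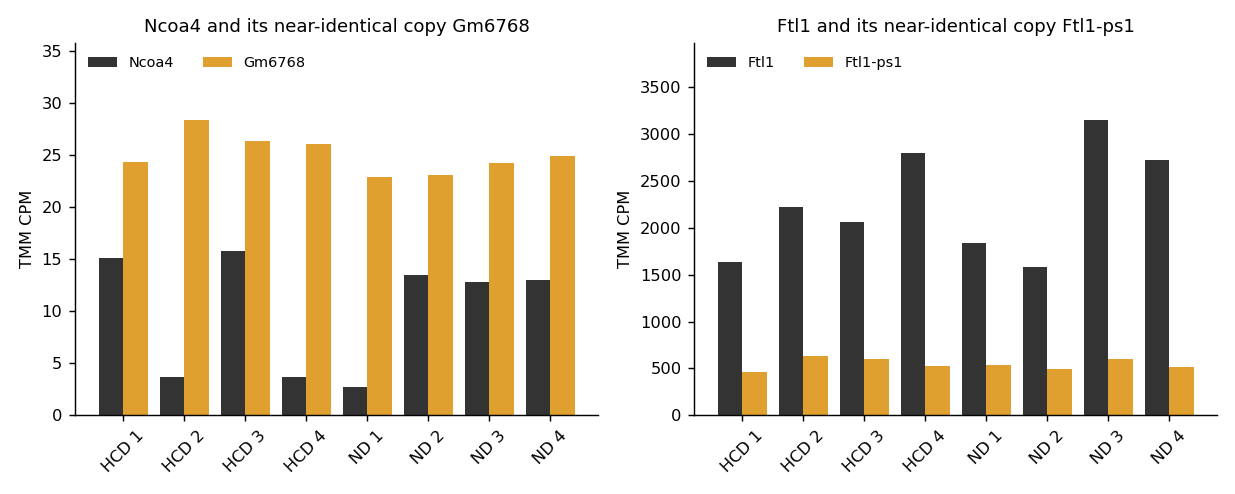
Levels of Ncoa4 beside Gm6768 (left) and of Ftl1 beside Ftl1-ps1 (right) in each library (y axis, TMM-scaled CPM, from 0), HCD libraries left of ND libraries, 1 bar per library with no error bar. Gm6768 lies above Ncoa4 in all 8 libraries and lacks its drop in HCD 2, HCD 4 and ND 1, while Ftl1 lies above Ftl1-ps1 in all 8.

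No copy of at least 200 aligned bases at 95% identity was found for the other 7 genes in the annotated transcripts. A listed gene with a ferritin heavy chain name, Fth-ps2 on chromosome 6 (ENSMUSG00000091313), did not meet these limits. It had 1, 1, 1 and 1 counts in HCD 1 to HCD 4 and 6, 1, 5 and 4 counts in ND 1 to ND 4.

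Slc40a1 (ENSMUSG00000025993, chr1:45908068-45926523, minus strand) encodes ferroportin, the iron exporter, which macrophages that recycle red cells express strongly. Its mean level was the lowest of the 9 genes in these tumours, with 42, 35, 58 and 38 counts in HCD 1 to HCD 4 and 50, 48, 50 and 48 counts in ND 1 to ND 4. As CPM these were 2.52, 2.12, 3.35 and 2.16 in HCD, against 2.86, 2.89, 3.09 and 3.33 in ND. HCD 1, HCD 2 and HCD 4 lay below every ND tumour and HCD 3 above every one. Means were 2.54 ± 0.57 CPM in HCD and 3.04 ± 0.217 CPM in ND, a log2 fold change of -0.26 (SE 0.213, 95% interval -0.73 to 0.21; edgeR adjusted p = 0.632). Its 369 counts over all libraries were the fewest of the 9 genes.

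Markers of host cell types differed between libraries, and those of macrophages and red cells are given by library beside Slc40a1. Summed over 12 macrophage markers, levels were 509, 508, 663 and 530 CPM in HCD 1 to HCD 4, against 562, 324, 366 and 433 CPM in ND 1 to ND 4. All 12 had positive fold changes, 0 were called and Cd163 was at 0 in at least 1 library. HCD 3, the HCD library highest for Slc40a1, was also highest for this sum, but ND 1, the ND library highest for the sum, was the ND library lowest for Slc40a1. Summed over 10 red cell markers, levels were 448, 111, 1351 and 889 CPM in HCD, against 111, 257, 141 and 1152 CPM in ND. Of these, 7 were tested, all 7 had positive fold changes and 0 were called, and Epb42 and Tspo2 were at 0 in at least 1 library. Of 10 fibroblast markers 8 were tested, all with positive fold changes (summed 85.4 to 312 CPM in HCD and 65.2 to 304 CPM in ND). Of 10 skeletal muscle markers 5 were tested, all with negative ones (3.27 to 6.92 CPM in HCD and 4.44 to 79.9 CPM in ND). Lum, Fap and 6 of the 10 muscle markers were at 0 in at least 1 library. Positive fold changes were also seen in 8 of 10 tested endothelial and 4 of 5 tested T cell markers. The 1 tested keratinocyte marker and the 1 tested adipocyte marker were positive too. In all of these lists 0 were called. The part of these cell types in the levels of Slc40a1 and the other iron genes was not tested.

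Aco1 (ENSMUSG00000028405, chr4:40143081-40198338, plus strand) encodes iron-regulatory protein 1, which is cytosolic aconitase when it carries an iron-sulfur cluster and binds iron-responsive elements when it does not. Its levels were 91.9, 94.2, 96.6 and 98 CPM in HCD 1 to HCD 4, against 99.9, 104, 99.3 and 103 CPM in ND 1 to ND 4. All 4 HCD tumours lay below all 4 ND tumours, although the nearest pair, HCD 4 and ND 3, were close. Means were 95.2 ± 2.7 CPM in HCD and 102 ± 2.35 CPM in ND, the smallest SD relative to the mean of the 9 genes. The log2 fold change was -0.09 (SE 0.0579, 95% interval -0.22 to 0.03), and it did not pass the test (edgeR adjusted p = 0.501). In fold the interval runs from 0.857 to 1.02.

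Ireb2 (ENSMUSG00000032293, chr9:54863789-54912530, plus strand) encodes iron-regulatory protein 2, which binds the same elements and is degraded in iron-rich cells. It had 71.7, 62.4, 58.1 and 70.7 CPM in HCD 1 to HCD 4, against 56.2, 59.9, 54 and 60.9 CPM in ND 1 to ND 4. HCD 1, HCD 2 and HCD 4 lay above every ND tumour, and HCD 3 lay inside the ND range. Means were 65.7 ± 6.56 CPM in HCD and 57.7 ± 3.2 CPM in ND. The log2 fold change of 0.19 (SE 0.0866, 95% interval 0.00 to 0.38) had the smallest p of the 9 genes, unadjusted 0.0552 and adjusted 0.354 by edgeR.

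Ratios within a library do not depend on the scaling between libraries, and 3 were followed, with no test. The log2 ratio of Ireb2 to Aco1 CPM was -0.36, -0.59, -0.73 and -0.47 in HCD 1 to HCD 4, against -0.83, -0.80, -0.88 and -0.75 in ND 1 to ND 4. Every HCD tumour lay above every ND tumour, with means of -0.54 ± 0.161 in HCD and -0.82 ± 0.052 in ND. The difference of 0.28 stayed between 0.22 and 0.34 when any 1 library was left out. Aco1 by itself already separated the groups, as did 9.67% of all genes tested. How often the ratio of other gene pairs separates them was not computed. HCD 3 and ND 4 were the nearest to each other.

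The log2 ratio of Tfrc to Fth1, an uptake gene over a storage gene, averaged -2.41 ± 0.366 in HCD and -2.52 ± 0.0772 in ND. The HCD tumours surrounded the ND tumours here, with HCD 1 and HCD 4 above all ND values and HCD 2 the lowest of 8, and the difference of 0.11 ran from -0.02 to 0.26 as single libraries were left out. The log2 ratio of Fth1 to Ftl1 averaged 0.13 ± 0.205 in HCD and 0.00 ± 0.423 in ND, with overlapping groups. It shares the uncertainty of Ftl1.

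**Figure D3:**
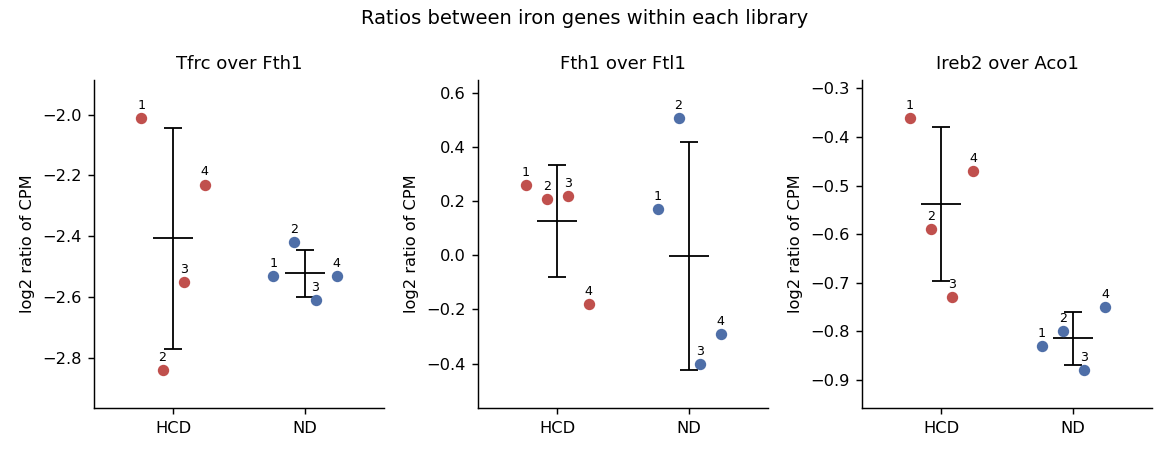
Log2 ratios of TMM-scaled CPM between iron genes within each library (y axis, linear in log2 units and not starting at 0), HCD left of ND, with replicate numbers beside the points and bars for the group mean ± SD (n = 4 each). Ireb2 over Aco1 lies between -0.73 and -0.36 in HCD and between -0.88 and -0.75 in ND, and the other ratios overlap.

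The genes whose pattern over the 8 libraries was most like a member's were sought for the 3 members with the largest SD of log2 CPM. Likeness was the root-mean-square distance between log2 CPM values, each centred on the gene's own mean, among tested genes with a mean of at least 10 CPM. For Ncoa4 (SD 1.07) the nearest were 2610001J05Rik at a distance of 0.636, Pheta1 at 0.675 and Zfp131 at 0.683. For Ftl1 (SD 0.372) they were Smim14 at 0.17, Ttc4 at 0.182 and Zxdc at 0.192. For Slc40a1 (SD 0.249) they were Miip at 0.0867, Mettl26 at 0.0942 and Pisd-ps1 at 0.0999. Slc40a1 had only 35 to 58 counts per library, and the part of counting noise in its pattern was not tested. No distance expected between unlike genes was computed for any of the 3 members.

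Another 89 genes of iron biology were read from the same fit in 4 lists. Of these, 73 were tested, 33 had positive and 40 negative fold changes with a median of -0.00886, and 0 were called by edgeR, against 0.182% of all genes. At an unadjusted p under 0.05 there were 9 genes (12.3%), 2 higher and 7 lower, against 14.7% of all genes. In 5 genes (6.85%), Fbxl5, Herc2, Lyrm4, Hspa9 and Chac1, the groups did not overlap, against 9.67% of all genes. DESeq2 called 4 of 73, all lower in HCD, against 3.17% of all genes, and limma-voom called 0.

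Among 28 genes of iron transport and its control, 16 were tested, 8 with positive and 8 with negative fold changes. The hormone hepcidin (Hamp) was at 0 in all libraries, and Tfr2, Tmprss6 and Ltf were among the 12 genes too low to test. Fbxl5, the iron-sensing ubiquitin ligase subunit that directs Ireb2 for degradation, averaged 38.7 ± 1.08 CPM in HCD and 34.1 ± 1.41 CPM in ND (log2 fold change 0.18, edgeR adjusted p = 0.284). Herc2, a ubiquitin ligase that acts on Ncoa4, averaged 103 ± 3.18 CPM in HCD and 91.4 ± 5.8 CPM in ND (0.17, edgeR adjusted p = 0.284). Steap1, of the same family as Steap3, averaged 4.25 ± 0.766 CPM in HCD and 5.95 ± 1.38 CPM in ND (-0.48, edgeR adjusted p = 0.329).

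All 25 genes of mitochondrial iron and iron-sulfur cluster assembly were tested, 13 with positive and 12 with negative fold changes and a median of 0.0162. Hspa9, the mitochondrial chaperone that helps transfer nascent clusters, averaged 589 ± 31.2 CPM in HCD and 698 ± 37.7 CPM in ND (log2 fold change -0.25, SE 0.0636, edgeR adjusted p = 0.128). DESeq2 called it, with an adjusted p of 0.0248. Lyrm4, a partner of the cysteine desulfurase, averaged 4.06 ± 0.813 CPM in HCD and 5.69 ± 0.557 CPM in ND (-0.49, edgeR adjusted p = 0.274). Ciapin1, of the cytosolic assembly machinery, averaged 49.4 ± 5.52 CPM in HCD and 59.3 ± 7.87 CPM in ND (-0.26, edgeR adjusted p = 0.333).

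Of 21 genes of haem synthesis, breakdown and transport, 20 were tested, 10 with positive and 10 with negative fold changes. Flvcr1, known as a haem exporter and choline transporter, had 14, 10.8, 11.1 and 14.9 CPM in HCD 1 to HCD 4, against 26.7, 24.4, 12.9 and 35.7 CPM in ND 1 to ND 4. All HCD tumours were low, and ND 3 lay with them. The log2 fold change was -0.97 (SE 0.259, 95% interval -1.54 to -0.39), which edgeR did not call (adjusted p = 0.137) and DESeq2 did (adjusted p = 0.00928). Blvra, biliverdin reductase A, averaged 31 ± 4.41 CPM in HCD and 35.6 ± 3.15 CPM in ND (-0.20, edgeR adjusted p = 0.478). Urod, an enzyme of haem synthesis, averaged 26 ± 3.04 CPM in HCD and 23.3 ± 1.84 CPM in ND (0.16, edgeR adjusted p = 0.552).

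Of 15 genes of iron-dependent lipid peroxidation, 12 were tested, 2 with positive and 10 with negative fold changes and a median of -0.0468. Chac1, which degrades glutathione, had 20.5, 16.2, 18 and 20.4 CPM in HCD 1 to HCD 4, against 28.6, 21.4, 31.1 and 32.9 CPM in ND 1 to ND 4. Its log2 fold change of -0.60 (SE 0.142, 95% interval -0.92 to -0.28) was called by DESeq2 (adjusted p = 0.00838) and not by edgeR (adjusted p = 0.11).

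Slc7a11, the cystine importer of system xc-, had 25.2, 20.3, 18.2 and 27.8 CPM in HCD 1 to HCD 4, against 43, 21.8, 38 and 57.3 CPM in ND 1 to ND 4. ND 2 lay within the HCD range and the other ND tumours above it. The log2 fold change was -0.80 (SE 0.253, edgeR adjusted p = 0.188, DESeq2 adjusted p = 0.0317). Its partner chain Slc3a2 averaged 474 ± 33.7 CPM in HCD and 529 ± 34.6 CPM in ND (-0.16, edgeR adjusted p = 0.34).

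**Figure D4:**
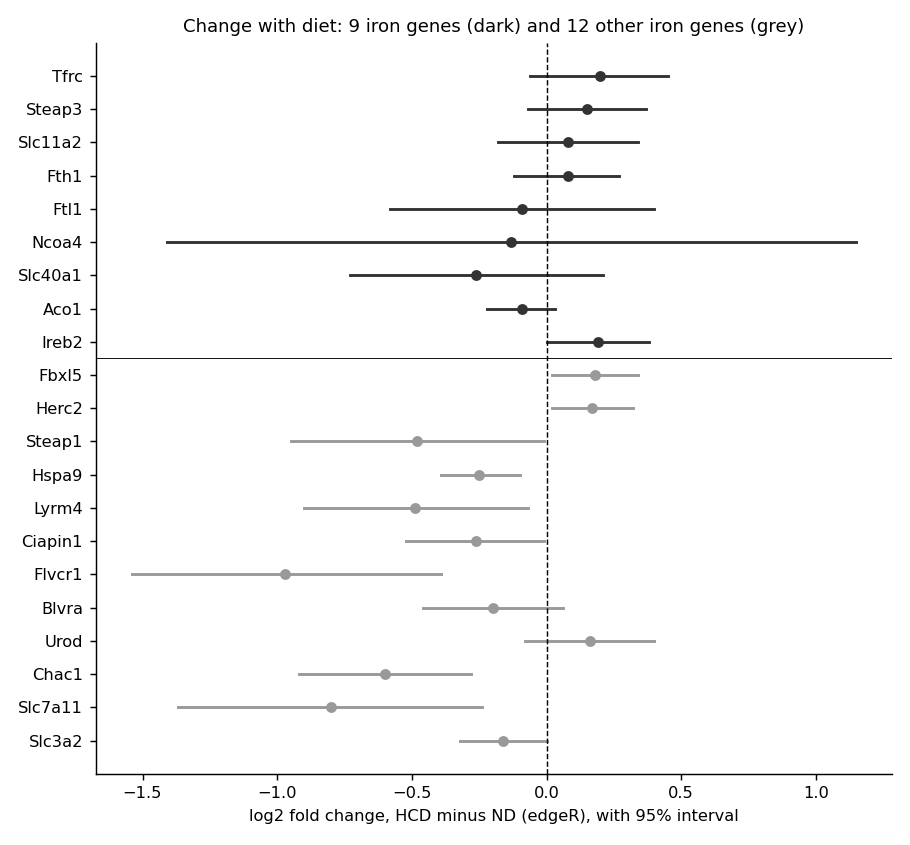
Log2 fold changes, HCD over ND, with 95% intervals from edgeR's quasi-likelihood fit (x axis) for the 9 iron genes (dark, above the line) and 12 other named genes of iron biology (grey, below it); the dashed line marks no difference. All 9 dark intervals reach 0, Ncoa4 has the widest at -1.41 to 1.15, and Flvcr1 has the lowest value in grey at -0.97.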

How the data were processed

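RNA-seq libraries of 4 HCD and 4 ND tumours were analysed, grouped by the diet in their labels. Per the labels' protocols, total RNA was made into paired-end TruSeq RNA libraries (Illumina). Genome build mm10 and the tools TopHat2 2.0.9, HTSeq, CASAVA 1.8 and edgeR appear in the submitters' processing notes, without their roles; strand setting and annotation release: not given in the sources used here. The authors, per the file headers, deposited whole-number counts per Ensembl gene, and FPKM beside them. FPKM served only for levels between genes, beside levels per annotated exon base, an alternative added after seeing the data.

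GENCODE M21 (GRCm38, also called mm10) named 34344 of 34745 genes. Of these 34745 genes, 11852 were at 0 in all libraries. Counts were tested with edgeR 4.0.16 (quasi-likelihood F-test, TMM, R 4.3.3, limma 3.58.1) with diet as the only term, a minimum count of 10 and minimum total of 15, and Benjamini-Hochberg adjustment over 13186 genes; DESeq2 1.42.0 was an alternative. Each SE is |log2 fold change| divided by the root of F. The fit was checked on simulated counts. Copies were sought with blastn 2.17.0 (95% identity, 200 bases). Within-group pairs differed by 14.5 to 37.6 times sampling variance. Each library counted as 1 sample, though spread of this kind does not show that the libraries came from separate mice. Totals were 14599222 to 17722093 counts per library, and Slc40a1 and Ncoa4 had the fewest counts of the members.

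Members, lists and alternatives were chosen with earlier results of these data known. Named are all members, their copies, genes of likest pattern, and the 3 members of each other list with the smallest p; Mitf, Hamp, Tfr2, Tmprss6 and Ltf were named after their values were seen. Alternatives were 2 other normalizations, no filter, 2 other tests, leaving out each library, a replicate block and a term for ND 2 to ND 4.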

Additional observations from a re-analysis of the deposited data

Results flagged for a closer look

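In 48 groups of 4 samples, 3 samples lay farther from the rest of their group than Dixon's 95% limit allows; chance gives about 1 in 20 groups. Ncoa4 was at 2.69 CPM in ND 1, against 12.8 to 13.5 CPM in the other ND tumours. HCD 2 and HCD 4 were at similar levels of 3.7 and 3.69 CPM. Herc2 was at 98.1 CPM in HCD 3, against 104 to 105 CPM in the other HCD tumours. The log2 ratio of Fth1 to Ftl1 was -0.176 in HCD 4, against 0.213 to 0.265 in the other HCD tumours.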

How the results depend on the processing

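The count of called iron genes was 0 of 9 under all 15 alternatives. Without HCD 1, 2 of the 9 reached an unadjusted p under 0.05, and 1 did so without HCD 2 or without HCD 3. Over all genes, 1647, 1696 and 1807 had one in those 3 fits. The number of genes tested in each of those fits is not given here, so these counts have no share beside them. In the main fit the share was 14.7% of all genes, against 0 of 9 iron genes. The other 73 iron genes gave 0 calls under every alternative except DESeq2, which called 4 (Hspa9 -0.25, Flvcr1 -0.97, Chac1 -0.60, Slc7a11 -0.81). Over 21 named genes and 15 alternatives, 303 of 315 log2 fold changes kept direction and call. Those that turned were Slc11a2, at -0.18 with a term for ND 2, ND 3 and ND 4; Ftl1, at 0.25 under that term, then between -0.24 and 0.09 as single libraries were left out; and Ncoa4, at 1.83 with that term and between -0.49 and 0.14 as single libraries were left out. The cause was not tested. Over all genes, 24 calls became 93 with no filter, 418 with DESeq2, 5 with that term, and 0 to 12 as single libraries were left out: 0 without HCD 4 (1516 at unadjusted p under 0.05) or ND 4 (1603), 12 without ND 2.

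With the replicate number as a block, edgeR called 0 genes (1634 at unadjusted p under 0.05). Deviations of same-numbered libraries correlated at 0.0249, -0.0113, -0.0676 and 0.1069. No HCD library correlated best with the ND library of its own number. HCD 1 did so with ND 2 (0.0681), HCD 2 and HCD 3 with ND 1 (0.0786 and 0.2008) and HCD 4 with ND 3 (0.1085). The lowest value was -0.277, for HCD 4 with ND 1. The labels do not say whether the numbers pair the groups. These values cannot settle it, since the ND deviations also carry the difference between ND 1 and the other ND libraries.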

Other observations

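The identifier ENSMUSG00000108439, which the annotation used here does not name, had 91, 4, 175 and 8 counts in HCD 1 to HCD 4 and 0, 129, 143 and 113 counts in ND 1 to ND 4. It was low in the same 3 libraries as Ncoa4, HCD 2, HCD 4 and ND 1, and was picked out after its values were seen. Genes whose products meet iron elsewhere in the cell had these levels, also chosen after their values were seen. Hmox1, the inducible haem oxygenase that frees iron from haem, averaged 203 ± 29.3 CPM in HCD and 204 ± 29.8 CPM in ND. Gpx4, which reduces lipid peroxides, averaged 147 ± 14.2 CPM in HCD and 152 ± 4.37 CPM in ND. Alas2, the red cell enzyme of haem synthesis, averaged 77.5 ± 64.8 CPM in HCD and 39.9 ± 46.3 CPM in ND, with an edgeR 95% interval for the log2 fold change of -0.80 to 2.73.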
